A study of Mus musculus with 10 samples.

Results

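Around Glo1 on mouse chromosome 17 lie Pim1, Tbc1d22b, Ccdc167, Mdga1, Zfand3 and Btbd9 on one side and Dnah8, Glp1r, Umodl1 and Abcg1 on the other, in that order. These 10 flanking genes were chosen by name as neighbours of Glo1, and each was read by the 1 probe set that the platform annotation assigns to its symbol alone, so 10 of the 19938 genes with a value are described. The question was which of them differ between mice with a Glo1 transgene on a bacterial artificial chromosome (BAC) and their wild-type littermates, whether those differences follow the Glo1 value of each array, and which rest on 1 array. RNA came from whole brains of untreated adult male mice on a C57Bl/6J background. The 5 mice of the Glo1 overexpression group (Tg) and the 5 wild-type mice (WT) were measured on 1 single-channel Affymetrix array each. The labels call the samples of a group biological replicates. The sources used here do not give the transgene's promoter, its founder lines or the stretch of mouse DNA on the BAC, so it is not known here which flanking genes the BAC carries.

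A BAC is a long cloned piece of genomic DNA. When it is chosen for 1 gene, it usually brings that gene's own regulatory sequence, and it can also carry all or part of the genes beside it. Glo1 encodes glyoxalase 1, which clears methylglyoxal, a reactive by-product of glycolysis. Its neighbours have unrelated roles: Btbd9 encodes a BTB-domain protein whose human counterpart is linked to restless legs syndrome, Dnah8 an axonemal dynein heavy chain known from sperm tails, and Glp1r the receptor of the gut hormone glucagon-like peptide 1.

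Among the flanking genes with an entry in the RefSeq promoter table, Zfand3, Dnah8 and Glp1r come next to Glo1 in gene order. Glo1 and Dnah8 are transcribed away from each other, Glo1 from the minus and Dnah8 from the plus strand. The 250 bases before each start are printed here from RefSeq (GRCm38.p6), 5′ to 3′, because these genes bracket the overexpressed gene and include Dnah8, which read higher in Tg, and both of the next such genes outward. Capitals mark matches, on either strand, to a CCAAT box (CCAAT) or a GC box (GGGCGG).
Zfand3 (chr17:30004789-30005038, plus strand): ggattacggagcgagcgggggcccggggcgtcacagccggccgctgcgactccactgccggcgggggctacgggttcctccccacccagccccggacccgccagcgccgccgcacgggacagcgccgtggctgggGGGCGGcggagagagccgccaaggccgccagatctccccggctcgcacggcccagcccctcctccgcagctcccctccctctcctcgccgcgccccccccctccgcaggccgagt
Glo1 (chr17:30612660-30612909, minus strand): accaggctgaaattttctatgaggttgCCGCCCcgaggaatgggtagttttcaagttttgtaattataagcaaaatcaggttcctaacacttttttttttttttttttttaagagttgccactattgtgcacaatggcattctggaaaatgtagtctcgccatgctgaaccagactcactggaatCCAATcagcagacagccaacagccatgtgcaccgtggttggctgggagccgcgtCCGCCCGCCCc
Dnah8 (chr17:30626686-30626935, plus strand): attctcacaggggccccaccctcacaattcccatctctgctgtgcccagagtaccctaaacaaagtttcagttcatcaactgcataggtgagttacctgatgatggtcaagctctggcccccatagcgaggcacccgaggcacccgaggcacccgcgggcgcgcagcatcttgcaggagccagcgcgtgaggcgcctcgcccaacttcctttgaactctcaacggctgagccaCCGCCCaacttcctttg
Glp1r (chr17:30901617-30901866, plus strand): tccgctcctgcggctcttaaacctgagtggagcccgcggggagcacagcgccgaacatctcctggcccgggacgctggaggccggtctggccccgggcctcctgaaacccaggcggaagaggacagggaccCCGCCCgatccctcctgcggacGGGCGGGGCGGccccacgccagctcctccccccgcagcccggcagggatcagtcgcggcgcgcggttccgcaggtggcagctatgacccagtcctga
The Glo1 sequence held 1 CCAAT box and 3 GC boxes, Dnah8 held 1 GC box, Glp1r 3 and Zfand3 1. Of 32851 promoters in that table, 33.9% held a CCAAT box and 32.7% a GC box in the same window. None of these 4 sequences held the letters of a TATA box (TATAAA, in 12.4% of promoters) or of an antioxidant response element (TGACNNNGC, in 10.2%). The CpG count was 8 for Glo1, 13 for Dnah8, 26 for Glp1r and 32 for Zfand3, against a median of 6 over all promoters. Such matches describe letters only and show no binding.

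All values are log2 expression values as deposited, and 28944 probe sets were tested. Median values of the arrays lay between 7.95 and 8.05. Neuronal markers averaged 12.19 to 12.23 on all 10 arrays, at the bright end of the deposited range. WT replicate 2 stood apart. Its cerebellar markers averaged 8.48, against 10.47 to 10.58 on the other 4 WT arrays and 10.30 to 10.42 on the Tg arrays, and 14 of 15 measured cerebellar markers were lowest there. Pituitary markers averaged 9.92 on WT replicate 2 and 9.54 on Tg replicate 2, against at most 6.88 on the other arrays. The dim probe sets (lower 40% by mean) had their highest median on WT replicate 2, at 6.32, against 6.06 to 6.17 on the other WT arrays and 6.11 to 6.23 on the Tg arrays. In bulk tissue, fewer cells of a type and less RNA per cell cannot be told apart. Differences without that array are given beside those with it.

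Glo1 itself separated the genotypes on every array. Its brighter probe set read 12.17, 11.88, 12.23, 12.06 and 12.06 in Tg replicates 1 to 5 and 10.55, 10.27, 10.75, 10.55 and 10.73 in WT replicates 1 to 5. The lowest Tg array, replicate 2, lay well above the highest WT array. The difference was 1.51 log2 units (95% interval 1.31 to 1.71, limma adjusted p = 3.5e-05), a fold of 2.85, and it was 1.43 log2 units without WT replicate 2. The other Glo1 probe set gave a fold of 2.84 (2.51 to 3.20). On the platform its number follows closely on that of the Btbd9 set. The number of the brighter set lies far from those of all flanking genes. Whether the brighter set also reads sequence outside this stretch was not tested. Within each genotype replicate 2 was the array with the lowest Glo1 value.

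Of the 10 flanking genes, Btbd9 and Dnah8, the measured neighbours on either side of Glo1, read higher in Tg brain. Dnah8 was dim, and whether its values rise above background was not tested. Neither gene passed the threshold over all probe sets (limma adjusted p = 0.9998 for each), and no flanking gene did. Of all probe sets 0.0345% passed, those of Glo1 included; without WT replicate 2 no flanking gene passed either, against 0.038%. At an unadjusted limma p under 0.05 were 2 of 10 flanking genes, against 2.21% of all probe sets. Both were higher in Tg, as were 0.985%. In 1 of 10 the groups did not overlap, against 0.46% in either direction and 0.149% higher in Tg. The mean was higher in Tg for 8 of 10, against 47.8%. Without WT replicate 2 it was higher for 7 of 10, against 54.2%, and 3 of 10 flanking genes had an unadjusted p under 0.05, against 5 of the 21 other measured genes of the stretch and 11% of all probe sets. The median difference was 0.028 log2 units over the 10 genes and -0.0031 over all probe sets, or 0.032 and 0.0083 without WT replicate 2. The flanking genes were listed with these results in view, so their counts are a description.

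**Figure D1:**
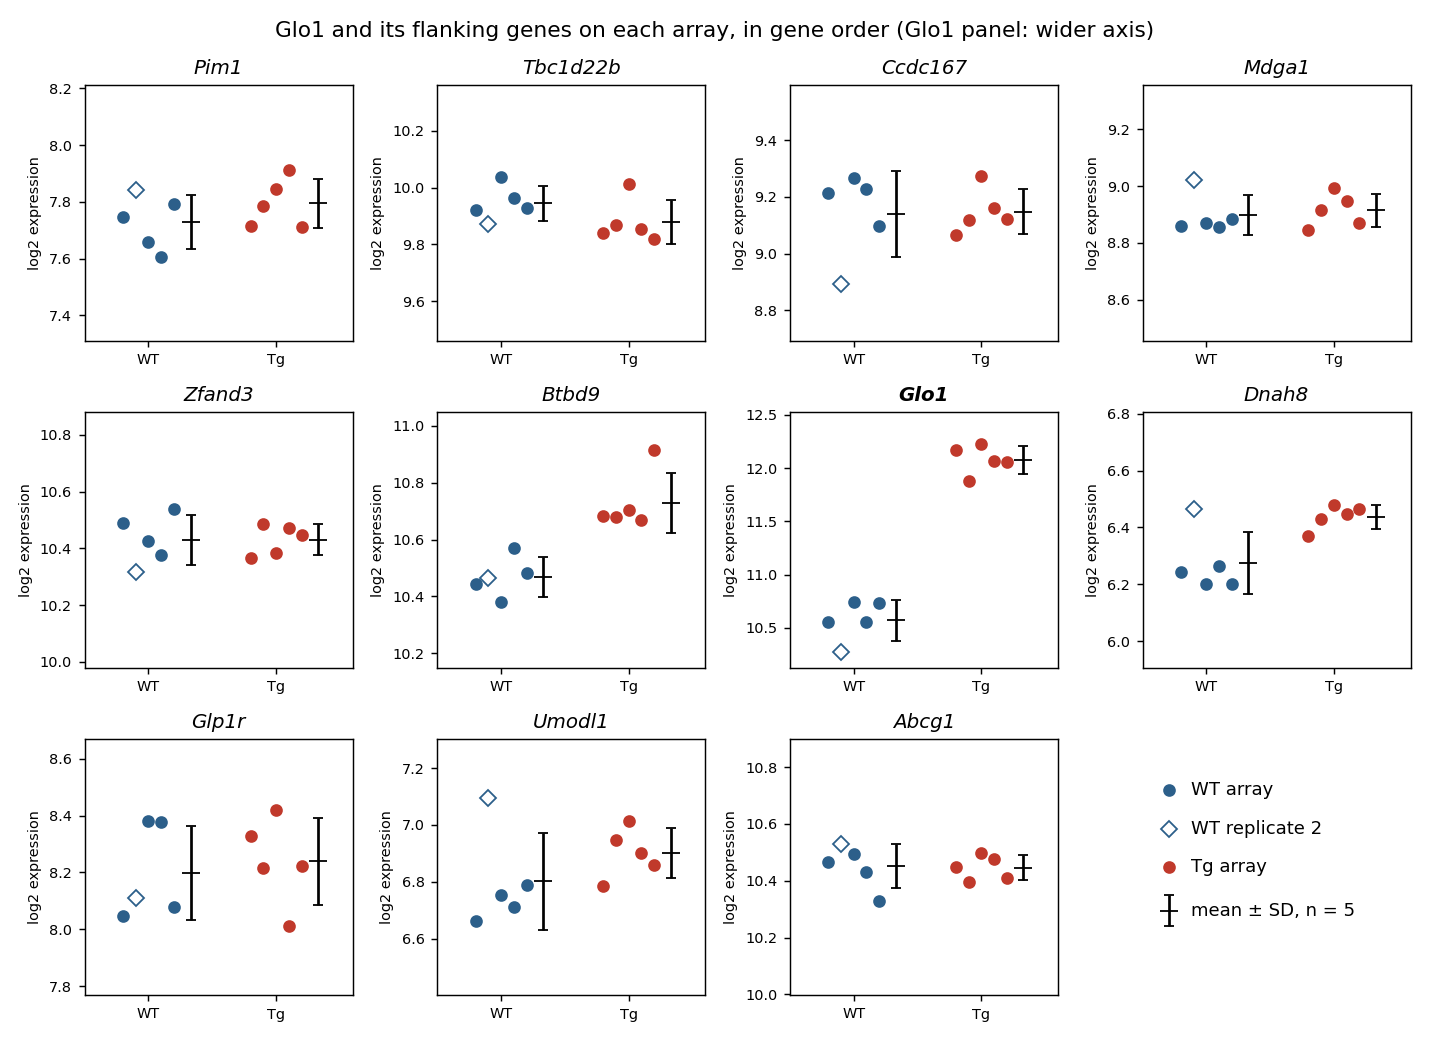
Log2 expression (vertical axis) of Glo1 and its 10 flanking genes on each of the 5 WT (blue) and 5 Tg (red) arrays, in gene order, with mean and SD at the right of each group. The member panels share 1 axis span and the Glo1 panel has a wider one; the Btbd9 groups do not overlap, and the open diamond (WT replicate 2) is the 1 WT value inside the Tg range of Dnah8.

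Btbd9, the nearest measured gene on the Zfand3 side, had the largest difference among the 10. It read 10.68, 10.68, 10.70, 10.67 and 10.92 in Tg replicates 1 to 5 and 10.44, 10.47, 10.38, 10.57 and 10.48 in WT replicates 1 to 5. The 5 Tg values all lay above the highest WT value, that of replicate 4, and 4 of them lay within a narrow band while Tg replicate 5 stood above it. The means were 10.73 ± 0.10 in Tg and 10.47 ± 0.069 in WT (SD, n = 5 each). The difference was 0.26 log2 units (SE 0.057, 95% interval 0.14 to 0.39), a level 19.9% higher, with a two-sided exact permutation p of 0.00794, the smallest that 5 against 5 arrays can give. Glo1 was 184.5% higher by the same measure. Of the bright probe sets (upper 60%), 0.253% had a difference at least as high as that of Btbd9. Leaving out Tg replicate 5 lowered the difference to 0.21, and leaving out any other array kept it between 0.24 and 0.29; the groups did not overlap in any of these 10 fits. Without WT replicate 2 it was 0.26 (limma adjusted p = 0.407), as large as with it.

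Zfand3, a zinc finger protein gene on the far side of Btbd9 from Glo1, had near-equal means. Its values ran from 10.36 to 10.49 in Tg and from 10.32 to 10.54 in WT, so the Tg range lay inside the WT range. The difference was 0.00098 log2 units (95% interval -0.11 to 0.11, exact permutation p = 0.976), and -0.027 (-0.13 to 0.073) without WT replicate 2. The step from Zfand3 to Btbd9 was tested on the difference between the 2 genes on each array. It averaged 0.30 ± 0.11 in Tg and 0.039 ± 0.12 in WT (SD, n = 5 each), and Tg exceeded WT by 0.26 (two-sided exact permutation p = 0.00794, adjusted over 4 pairs 0.0106). Without Tg replicate 5 the step was 0.22 and missed the threshold (exact permutation p = 0.0397, adjusted 0.0529). Glo1 exceeded Btbd9 in its own change by 1.25 and Dnah8 by 1.35 log2 units (exact permutation p = 0.00794 and adjusted p = 0.0106 for each pair). These 2 pairs hold the overexpressed gene, so their difference was built in by the design. Counting them among the 4 pairs makes the adjustment milder for the other 2. The pairs were also drawn from genes listed with these results in view. Because Zfand3 hardly differed, the step of 0.26 is largely the Btbd9 difference over again and adds no separate support.

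**Figure D2:**
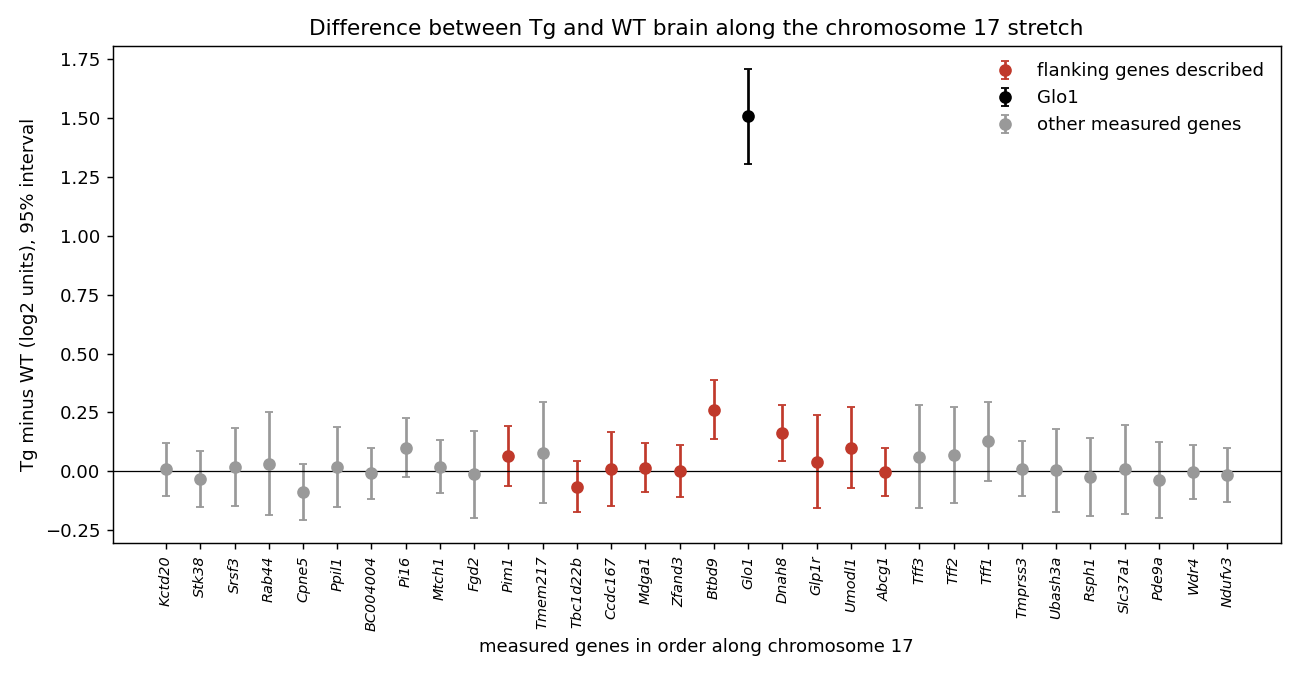
Tg minus WT difference in log2 units with its 95% interval (vertical axis) for 32 measured genes in order along chromosome 17, n = 5 arrays per group. Glo1 (black) stands at 1.51; among the flanking genes (red) only the intervals of Btbd9 and Dnah8 exclude 0, and all 21 other measured genes (grey) have intervals that include 0.

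Dnah8, on the other side of Glo1, was dim in brain: its mean ranked at the 22.6th percentile of probe sets. The median of the dim probe sets lay between 6.06 and 6.32 on the arrays, close to the Dnah8 values. Whether Dnah8 read above background was not tested. It read 6.37, 6.43, 6.48, 6.45 and 6.46 in Tg replicates 1 to 5 and 6.24, 6.46, 6.20, 6.26 and 6.20 in WT replicates 1 to 5. All Tg values exceeded 4 of the WT values, and WT replicate 2 lay among the Tg values. The difference was 0.16 log2 units (SE 0.055, 95% interval 0.044 to 0.28, exact permutation p = 0.0397). Without WT replicate 2 it was 0.21 (95% interval 0.13 to 0.29, limma adjusted p = 0.248) and the groups did not overlap. That was so for 3.1% of all probe sets without that array, and for 1.86% with Tg the higher group.

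WT replicate 2 read high on dim probe sets in general, and 65.4% of the lower 40% of probe sets had their highest WT value there. Without that array the median difference of dim probe sets was itself 0.053 log2 units, and 3.41% of them had a difference at least as high as that of Dnah8; with all arrays the median was 0.016 and that share 2.24%. Cyclic loess, a normalization that evens out shifts that depend on brightness, was added after this was seen. It gave Dnah8 a difference of 0.14 with all arrays and 0.15 without WT replicate 2, and in both the groups did not overlap. With all arrays 0.411% of all probe sets had such groups and 0.214% had Tg the higher one, and without WT replicate 2 the latter share was 1.17%. Quantile normalization gave 0.14, again with no overlap, against 0.221% of all probe sets with Tg the higher group. Markers of ependymal and other motile cilia, the cell structures that axonemal dyneins serve, averaged 7.22 to 7.27 in Tg and 7.23 to 7.31 in WT over 13 measured genes, with 0 at an unadjusted p under 0.05 by limma. Of all probe sets 2.21% had such a p, so a count of 0 does not set this list apart. Of the 13 markers, 7 were themselves dim. The part of ciliated cells in the Dnah8 value was not tested.

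Glp1r followed Dnah8 in gene order. It spread widely in both groups, from 8.01 to 8.42 in Tg and from 8.05 to 8.38 in WT, and its groups overlapped over nearly their whole range. The difference was 0.040 log2 units (95% interval -0.16 to 0.24, exact permutation p = 0.683), so a difference as large as that of Dnah8 lay inside the interval. It was 0.018 without WT replicate 2 and ranged from -0.0049 without Tg replicate 3 to 0.097 without Tg replicate 4. The step from Dnah8 to Glp1r was -0.12 in Tg against WT (exact permutation p = 0.325, adjusted over 4 pairs 0.325), and a difference between these 2 neighbours was not detectable. Single arrays moved this step: it was -0.19 without WT replicate 2 (exact permutation p = 0.159), -0.059 without WT replicate 3, -0.064 without Tg replicate 4 and -0.076 without WT replicate 4.

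Umodl1, a uromodulin-like gene, was dim as well, at the 30.4th percentile. It read 6.78, 6.95, 7.01, 6.90 and 6.86 in Tg replicates 1 to 5 and 6.66, 7.10, 6.75, 6.71 and 6.79 in WT replicates 1 to 5. WT replicate 2 was the highest of all 10 arrays, while the other 4 WT values lay below all Tg values, except that WT replicate 5 just exceeded Tg replicate 1. The difference was 0.10 log2 units (95% interval -0.072 to 0.27, exact permutation p = 0.278). Without WT replicate 2 it was 0.17 (0.060 to 0.29, limma adjusted p = 0.407) and its unadjusted p was under 0.05. Without that array 7.07% of all probe sets had such a p with Tg higher, and 7.57% of dim probe sets had a difference at least as high. With cyclic loess as well, the difference without that array was 0.11 (limma adjusted p = 0.618). Leaving out WT replicate 1 instead lowered the difference to 0.065, so single arrays moved it both up and down. The highest Tg value of Umodl1 was on replicate 3, where 8 olfactory bulb markers averaged 8.31, against 7.66 to 8.21 on the other Tg arrays and 7.50 to 7.84 in WT. Other arrays did not follow this order. Tg replicate 4 had these markers at 8.21 and Umodl1 at 6.90, below the 6.95 of Tg replicate 2, where the markers averaged 7.72. WT replicate 2, with the highest Umodl1 value, had them at 7.70. The part of that tissue in the Umodl1 value was not tested.

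Abcg1, a cholesterol export transporter gene at the far end on this side, was bright and nearly level. It ranged from 10.40 to 10.50 in Tg and from 10.33 to 10.53 in WT, and the difference was -0.0043 log2 units (95% interval -0.11 to 0.097), or 0.016 (-0.081 to 0.11) without WT replicate 2. Beyond it, the 10 next measured genes, from Tff3 to Ndufv3, differed by -0.037 to 0.13 with a median of 0.0062, and 0 of them had an unadjusted limma p under 0.05 or groups that did not overlap. With WT replicate 2 left out their median was 0.065, 9 of 10 were higher in Tg, and 3 had an unadjusted limma p under 0.05: Tff1 at 0.19, Tff2 at 0.15 and Pde9a at -0.11. These 3 are named because of those values. Without that array 54.2% of all probe sets were higher in Tg, and 11% had an unadjusted limma p under 0.05 in either direction. Of the 3, Tff1 and Tff2 rose as Umodl1 did when that array was left out, and Pde9a moved the other way. Tff1 then differed by more than Umodl1.

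On the other side, the flanking genes from Zfand3 outward all had differences whose 95% intervals include 0. Mdga1, which encodes a membrane-anchored protein that binds neuroligins and limits inhibitory synapses, ranged from 8.85 to 8.99 in Tg. In WT it ranged from 8.86 to 8.88 on 4 arrays and reached 9.02 on replicate 2. That gave a difference of 0.016 log2 units (95% interval -0.088 to 0.12), or 0.047 without WT replicate 2.

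Ccdc167, a coiled-coil protein gene, read 9.07, 9.12, 9.28, 9.16 and 9.12 in Tg replicates 1 to 5 and 9.21, 8.89, 9.27, 9.23 and 9.10 in WT replicates 1 to 5. WT replicate 2 was the lowest of the 10 arrays. The difference of 0.0084 (95% interval -0.15 to 0.16) became -0.054 without that array (-0.17 to 0.060). Its sign also turned without Tg replicate 3 (-0.023) or WT replicate 5 (-0.0021), and both intervals include 0.

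Tbc1d22b, a gene of the TBC family of Rab GTPase regulators, had the lowest difference of the 10. It read 9.84, 9.87, 10.01, 9.86 and 9.82 in Tg replicates 1 to 5 and 9.92, 9.87, 10.04, 9.96 and 9.93 in WT replicates 1 to 5. The difference was -0.065 log2 units (95% interval -0.17 to 0.042, exact permutation p = 0.159), with 4 Tg arrays below the lowest WT array and Tg replicate 3 among the WT values. Without Tg replicate 3, the array that overlapped, it was -0.099 and the groups did not overlap, as in 0.491% of all probe sets with Tg the lower group. Without WT replicate 3 it was -0.042, and without WT replicate 2 -0.083. Pim1, a serine/threonine kinase gene, ranged from 7.71 to 7.91 in Tg and from 7.61 to 7.84 in WT, a difference of 0.065 (-0.062 to 0.19). It was 0.035 without WT replicate 4 or without Tg replicate 4, and 0.093 without WT replicate 2. Among the 10 measured genes beyond Pim1 and Tmem217, which lies between Pim1 and Tbc1d22b, 0 had an unadjusted limma p under 0.05. Pi16 (0.14) and Tmem217 (0.16) did once WT replicate 2 was left out, as did 11% of all probe sets. Of all 21 other measured genes of the stretch, the 3 of lowest limma p were Pi16 at 0.099 (exact permutation p = 0.151), Cpne5 at -0.090 (exact permutation p = 0.103) and Tff1 at 0.13 (exact permutation p = 0.175).

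**Figure D3:**
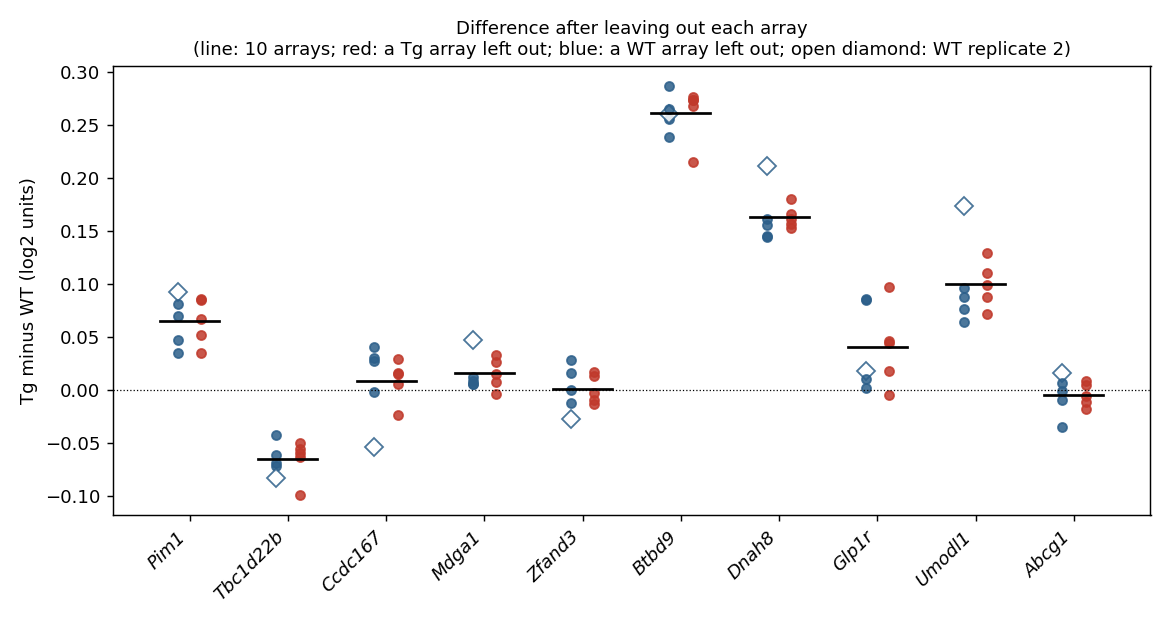
Tg minus WT difference in log2 units (vertical axis) of the 10 flanking genes with all 10 arrays (black line) and after leaving out each array (red, a Tg array; blue, a WT array; open diamond, WT replicate 2). Btbd9 stays between 0.21 and 0.29 and Dnah8 between 0.14 and 0.21, Umodl1 moves to 0.17 without WT replicate 2, and Ccdc167, Mdga1, Zfand3, Glp1r and Abcg1 cross 0.

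How far each gene rested on 1 array was read from the 10 fits that left out an array each. Btbd9, Dnah8, Umodl1, Pim1 and Tbc1d22b kept their sign in all of them, and the other 5 genes did not. WT replicate 2 was the highest or lowest WT array for 8 of the 10 flanking genes, against 73.0% of all probe sets, so the flanking genes were like the table as a whole in this. Btbd9 and Glp1r were the 2 exceptions. Tg replicate 3 was the highest Tg array for 7 of the 10 genes and the lowest for 0. It was the highest or lowest Tg array for 41.9% of all probe sets, and the share where it was the highest was not counted.

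The last comparison asked whether any flanking gene followed Glo1 from array to array. Tg and WT form separate clusters in Glo1 and 5 arrays per genotype are too few for a correlation within one, so no correlation is given. Instead a common slope on Glo1 within genotypes was fitted across all probe sets with limma. Replicate 2, the array lowest in Glo1 within each genotype, was also the array with high pituitary markers. They averaged 9.92 there in WT and 9.54 in Tg, against at most 6.88 on the other arrays. The part of tissue content in these slopes was not tested. The slope of Btbd9 was -0.067 log2 units per log2 unit of Glo1 (95% interval -0.49 to 0.36, limma adjusted p = 0.833). Tg replicate 2, with the lowest Glo1 of the Tg arrays, had a Btbd9 value of 10.68, equal to that of Tg replicate 1. Tg replicate 5, with the highest Btbd9, had a Glo1 value of 12.06, below those of Tg replicates 1 and 3 and level with that of replicate 4. No scaling of Btbd9 with Glo1 among arrays of 1 genotype was detectable, although a slope of up to 0.36 lay inside the interval.

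Dnah8 had a negative slope of -0.37 (95% interval -0.70 to -0.040, limma adjusted p = 0.132), opposite in sign to its difference between genotypes. Ccdc167 had a positive one of 0.48 (0.045 to 0.92, limma adjusted p = 0.137). These 2 of 10 genes at an unadjusted p under 0.05 compare with 30.1% of all probe sets, and 0 of 10 passed when adjusted over all, against 3.6%. Without WT replicate 2, the array with the lowest Glo1 value of all, the slopes were -0.082 for Dnah8 (limma adjusted p = 0.956) and 0.11 for Ccdc167 (limma adjusted p = 0.958). No flanking gene was then at an unadjusted p under 0.05, against 6.94% of all probe sets; Tbc1d22b had the lowest (limma adjusted p = 0.841). Without WT replicate 3 neither gene had an unadjusted p under 0.05 (-0.36 and 0.43); nor did Dnah8 without Tg replicate 1 (-0.35) or WT replicate 5 (-0.35), or Ccdc167 without Tg replicate 3 (0.43), where Umodl1 did (-0.62). With all arrays kept, the Dnah8 slope was -0.010 under quantile normalization and -0.032 under cyclic loess, so it also depended on the normalization. The Ccdc167 slope was 0.44 and 0.48 under these, and 0.57 under median centring (limma adjusted p = 0.0634), where Tbc1d22b had 0.35 (limma adjusted p = 0.102). The other 7 slopes had limma adjusted p values from 0.220 for Umodl1 to 0.733 for Abcg1.

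**Figure D4:**
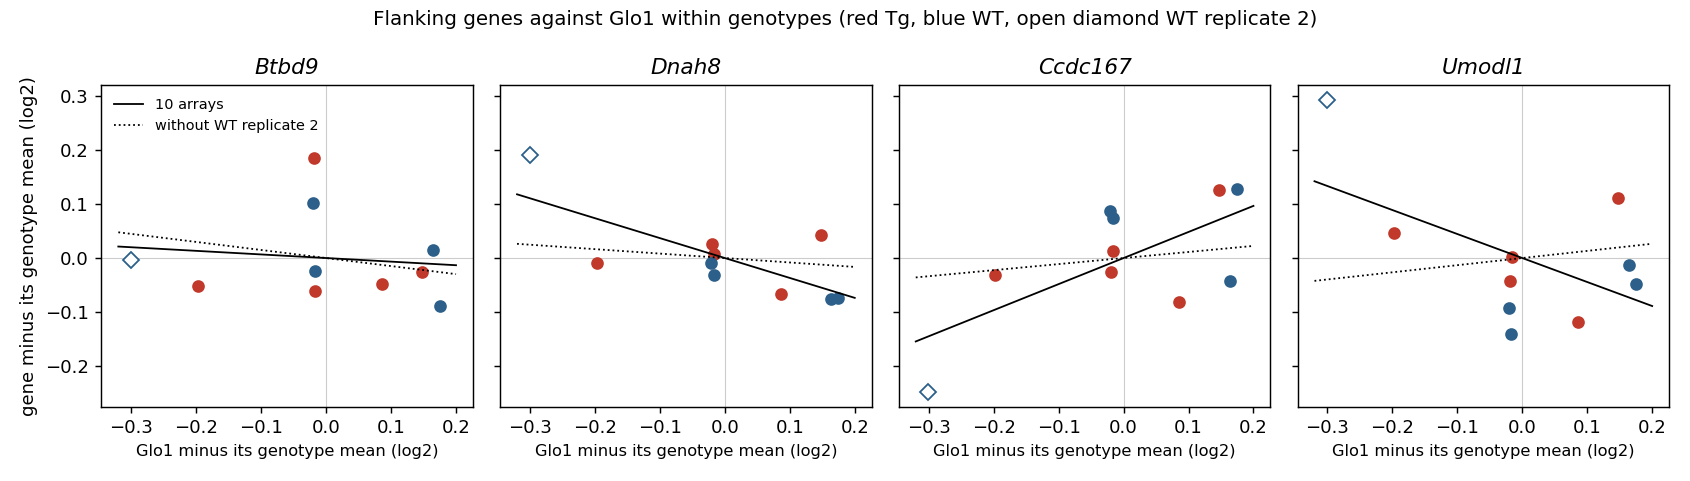
Deviation of Btbd9, Dnah8, Ccdc167 and Umodl1 from their genotype mean (vertical axis, log2) against that of Glo1 on the same array (horizontal axis, log2), with the common slope over 10 arrays (solid) and without WT replicate 2 (dotted). Btbd9 shows a slope of -0.067, and the slopes of Dnah8, Ccdc167 and Umodl1 flatten or turn without the open diamond at the left, WT replicate 2.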

How the data were processed

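The submitters' processing notes name Affymetrix Expression Console 1.1.2; its settings and the genome build were not found in those notes or the labels. Values deposited by the authors run from 3.28 to 14.7, were read as log2 from that range, and were used unaltered; arrays compress ratios of dim probe sets. Probe sets numbered below the main transcript clusters, none of them paired with a gene, were taken as controls and left out (6612 of 35556, 18.6%). Of 28944 probe sets, 21789 had 1 gene, 1621 several and 5534 were unnamed here. Symbols were updated, and genes ordered, with the RefSeq annotation of GRCm38.p6. The RefSeq promoter table matched 8 of 10 flanking genes, and the first listed entry was used.

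Tg and WT were compared with limma 3.58.1 (lmFit, eBayes) in R 4.3.3, Benjamini-Hochberg over all probe sets, threshold 0.05, and by exact permutation of single values. The slope fit added the array's Glo1 value, from the brighter Glo1 probe set, centred within genotype. Both fits were tested on simulated data with independent noise and no shift of a whole array. That test does not cover shifts such as that of WT replicate 2. The text names all 10 flanking genes and Glo1. Of the other 21 genes of the stretch it names any with groups that do not overlap and the 3 of lowest p. Tff3, Ndufv3 and Tmem217 mark positions. Tff1, Tff2, Pde9a, Pi16 and Tmem217 are also named for their unadjusted limma p without WT replicate 2. Members and lists, marker lists included, were chosen with earlier results of these data known. Markers of astrocytes, oligodendrocytes, microglia and choroid plexus differed by 0.020, -0.018, -0.013 and 0.029 log2 units (Tg minus WT of the list mean), olfactory bulb by 0.27 (2 of 8 markers at an unadjusted limma p under 0.05), cerebellum by 0.24 and pituitary by 0.012; without WT replicate 2 the last 3 were 0.27, -0.17 and 0.67. Alternatives were quantile normalization, cyclic loess (chosen after seeing the data), median centring, a dim filter, another variance model, array weights, a replicate block, the other Glo1 probe set and leaving out arrays. Precision is limited by how many arrays there are.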

Additional observations from a re-analysis of the deposited data

Results flagged for a closer look

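In 4 of the 22 groups of 5 arrays checked (Glo1 and 10 flanking genes in each genotype), 1 array stood far from the other 4 by Dixon's test, which chance alone gives in about 1 of 20 groups. Btbd9 read 10.92 on Tg replicate 5, with the next Tg array at 10.70. Tbc1d22b read 10.01 on Tg replicate 3, with the next at 9.87. Dnah8 read 6.46 on WT replicate 2, with the next WT array at 6.26, and Mdga1 read 9.02 there, with the next at 8.88. WT replicate 2 was the highest or lowest WT array for 73.0% of all probe sets. How often all probe sets meet the rule of this test was not counted, so these 4 groups are a description. The 22 groups also share the same 10 arrays.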

How the results depend on the processing

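Under every alternative 0 of 10 flanking genes passed over all probe sets, and Btbd9 kept its sign, an unadjusted limma p under 0.05 and groups that did not overlap. Dnah8 kept its sign and p under 0.05 wherever it was tested; the upper 60% of probe sets left out Dnah8 and Umodl1, so 1 flanking gene was at p under 0.05 there. Groups did not overlap for 2 genes under quantile normalization, cyclic loess, and cyclic loess without WT replicate 2, and for 1 to 2 with single arrays left out. The step from Zfand3 to Btbd9 ranged from 0.22 to 0.30 with single arrays left out. The count of slopes on Glo1 at p under 0.05, 2 with all arrays, was 0 with array weights, quantile normalization or the replicate block, 1 with cyclic loess, trend and robust variances, the other Glo1 probe set or the dim filter, 2 with median centring (Ccdc167 and Tbc1d22b), and 0 to 2 with single arrays left out. With the replicate block Btbd9 differed by 0.26 (limma adjusted p = 0.999) and 9 probe sets were lower in Tg, against 8 without it; 2 of 5 Tg arrays correlated best with the WT array of their own number. Deviations of same-numbered arrays correlated at -0.47 to 0.45, so the numbers were not taken as pairs.

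Values near 0 changed sign. With array weights the differences were 0.012 for Abcg1, -0.048 for Ccdc167 and -0.033 for Zfand3. Abcg1 differed by 0.014 with quantile normalization and with cyclic loess, and cyclic loess without WT replicate 2 gave 0.042 for Abcg1, -0.033 for Ccdc167 and -0.00091 for Zfand3. Median centring gave -0.00012 for Zfand3. Slopes turned to 0.055 (array weights) and 0.043 (median centring) for Abcg1, 0.071 (median centring) for Btbd9, 0.084, 0.040 and 0.049 (cyclic loess, quantile, replicate block) for Pim1 and -0.076 (array weights) for Zfand3. With single arrays left out, differences ranged from -0.035 to 0.016 for Abcg1, -0.054 to 0.040 for Ccdc167, -0.0049 to 0.097 for Glp1r, -0.0039 to 0.047 for Mdga1 and -0.027 to 0.028 for Zfand3. Slopes ranged from -0.18 to 0.12 for Abcg1, -0.16 to 0.028 for Btbd9, -0.27 to 0.086 for Mdga1, -0.24 to 0.11 for Pim1, -0.62 to 0.13 for Umodl1 and -0.15 to 0.24 for Zfand3. Differences of the same fits were 0.035 to 0.093 for Pim1, -0.099 to -0.042 for Tbc1d22b and 0.065 to 0.17 for Umodl1. The cause was not tested. Averaging probe sets per gene gave no other value, since each gene had 1.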
